A study of Homo sapiens with 6 samples.

Results

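The 35 genes described here act in homologous recombination and in the Fanconi anemia pathway, and each was taken from the deposited expression table by its gene symbol, 35 of 58735 genes in all. TPC-1 is a cell line from a human papillary thyroid carcinoma. The control group, TPC-1, consisted of 3 libraries from the uninfected wild strain, labelled WT. The other group, RRM2-OE-TPC-1, consisted of 3 libraries from TPC-1 cells infected with a lentivirus that carries RRM2, the small subunit of ribonucleotide reductase, behind a CMV promoter, and then selected with puromycin. The groups therefore differed in infection and selection as well as in RRM2, and these cannot be told apart with these libraries. The labels name no drug or other treatment for either group, and nothing in the sources used here says whether the overexpressing strain was 1 clone or a pool. The genotype labels of RRM2-OE-TPC-1 replicates 2 and 3 read RRM3 and RRM4 overexpression, while the titles of all 3 libraries say RRM2.

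Between 14317091 and 17084067 reads per library were assigned to genes, and levels were given as FPKM, fragments scaled to exon length and library depth. RRM2 stood at 9.17, 9.05 and 8.52 FPKM in the TPC-1 libraries and at 50.4, 47.5 and 47.2 FPKM in the RRM2-OE-TPC-1 libraries, so all 3 libraries of that group carried a raised RRM2 level whatever their genotype label. Of the thyroid follicular markers, PAX8 was well expressed (69.3 ± 1.84 FPKM in TPC-1 against 58.5 ± 1.92 in RRM2-OE-TPC-1, SD, n = 3) and FOXE1 was present, TG, TSHR and SLC5A5 were at or near 0 in every library, and NKX2-1 was listed at 0. Of the epithelial markers, KRT18 rose from 41.2 ± 1.78 to 85.2 ± 1.26 FPKM and KRT8 from 2.56 ± 0.223 to 3.48 ± 0.115 FPKM (SD, n = 3), while EPCAM, KRT19 and CDH1 were near 0. Leukocyte markers summed to at most 0.410 FPKM in any library. The endothelial markers CDH5 and VWF were at or near 0, and the third marker of that list, PECAM1, fell from 0.924 ± 0.102 to 0.0588 ± 0.0356 FPKM (SD, n = 3).

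Homologous recombination repairs a DNA double-strand break by copying the sister chromatid. The broken ends are resected to single strands, the BRCA1, PALB2 and BRCA2 proteins govern the loading of a protein filament onto them, factors such as RAD51C, XRCC2 and RAD54L help the filament to pair with its template, and helicases and nucleases take the joined molecules apart. The Fanconi anemia pathway deals with crosslinks between DNA strands: a core ubiquitin ligase complex, working with the conjugating enzyme UBE2T, adds ubiquitin to the FANCD2-FANCI pair, USP1 removes it, and several proteins, among them BRCA2, PALB2 and BRIP1, belong to both pathways. Both act mainly in S and G2 phase, and many of their genes are transcribed in a cell cycle dependent way through E2F factors.

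Because E2F letters are the best known shared feature of such promoters, the promoter windows of the genes were searched for them. RefSeq windows on GRCh38.p14, from 250 bases before to 50 bases after each start, were matched by symbol for 31 of the 35 genes, all but NBN, RAD54B, RMI2 and FANCI. The letters TTTCCCGC, TTTCGCGC, TTTGGCGC or TTTGCCGC were looked for on both strands, and they stood in the windows of 6 genes, which are EXO1, FANCA, FANCC, FANCD2, RMI1 and XRCC2. These 6 windows were 6 of 41 windows of the genes, since some genes have several starts, while 3.32% of all 35116 windows and 5.00% of the 13885 windows of genes tested for expression held the letters. The 100-base stretches around the match are shown so that its place can be seen, written in the direction of transcription with the match in capitals. A match on the opposite strand appears as its reverse complement, as in FANCA, FANCD2, RMI1 and XRCC2. FANCC held a further match outside the stretch shown.
EXO1 (chr1:241848134-241848233, plus strand): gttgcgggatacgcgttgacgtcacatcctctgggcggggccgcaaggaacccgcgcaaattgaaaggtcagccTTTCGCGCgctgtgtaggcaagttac
FANCA (chr16:89816766-89816865, minus strand): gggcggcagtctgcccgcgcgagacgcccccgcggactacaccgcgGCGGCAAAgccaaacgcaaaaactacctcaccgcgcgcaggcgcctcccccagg
FANCC (chr9:95317702-95317801, minus strand): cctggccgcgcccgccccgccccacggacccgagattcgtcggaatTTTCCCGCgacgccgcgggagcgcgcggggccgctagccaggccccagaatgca
FANCD2 (chr3:10026367-10026466, plus strand): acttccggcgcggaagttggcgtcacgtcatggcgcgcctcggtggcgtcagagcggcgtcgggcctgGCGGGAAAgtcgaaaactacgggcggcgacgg
RMI1 (chr9:83980727-83980826, plus strand): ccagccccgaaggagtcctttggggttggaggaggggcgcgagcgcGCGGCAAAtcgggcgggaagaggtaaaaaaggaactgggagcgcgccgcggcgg
XRCC2 (chr7:152676112-152676211, minus strand): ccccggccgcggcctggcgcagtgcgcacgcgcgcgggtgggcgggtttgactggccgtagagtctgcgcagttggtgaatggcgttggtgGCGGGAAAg

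Of these 6 genes, 5 rose with RRM2 overexpression and RMI1 did not pass the test (values for each are given with its role group), where 74.3% of all 35 genes rose, so the count says nothing particular about the letters. The same search found the CHR letters TTTGAA, a short element of cell cycle genes, in 4 of the 31 genes (BRIP1, FANCC, UBE2T and USP1), all of which rose. These were 4 of 41 windows, close to the 10.1% of windows of tested genes. CCAAT stood in 14 of the 31 genes, of which 9 rose, in 15 of 41 windows against 34.5% of the windows of tested genes. These are matches of letters only, and genes without a match include BRCA2, FANCB and FANCE, which were among those with the largest increases.

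All 35 genes passed the filter on low values and were tested. In RRM2-OE-TPC-1, 26 genes were higher and 2 were lower than in TPC-1 at an adjusted p of 0.05 or less (limma on log2(FPKM + 0.1), Benjamini-Hochberg over 13621 genes), and 7 did not pass. Over all genes tested, 67.6% passed in either direction, 34.9% higher and 32.7% lower, so the background of changed genes in this comparison was high and was nearly even in direction. The median log2 fold change was 0.54 over the 35 genes and 0.01 over all genes tested. When a log2 fold change of at least 1 in size was required too, 6 genes were higher (EXO1, FANCB, BRIP1, BRCA2, BLM and FANCE) and none lower, against a background of 11.5% in either direction, 4.48% higher and 6.97% lower. The 3 libraries of RRM2-OE-TPC-1 lay wholly above those of TPC-1 for 26 genes and wholly below for 2, where 72.2% of all tested genes had separate groups, 37.3% higher and 35% lower, and the groups overlapped for 7 genes. For a single gene, an exact permutation test of 3 against 3 libraries cannot give a two-sided p under 0.1.

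The levels were low to moderate. The mean in TPC-1 ran from 0.837 FPKM for RAD50 to 21.9 for NBN with a median of 3.34, and the median in RRM2-OE-TPC-1 was 4.34, while the median of all tested genes was 5.42 in both groups. The median coefficient of variation of the 35 genes between replicates was 8.09% in TPC-1 against 6.21% in RRM2-OE-TPC-1. Over all tested genes, RRM2-OE-TPC-1 replicate 1 stood apart from the others of its group. The mean squared difference over counting noise was 5.325 between replicates 1 and 2, 6.077 between 1 and 3, and 1.837 between 2 and 3. In TPC-1 it was 3.07 to 3.48. The number of reads behind a value ran from 46 to 2837, the lowest being in RMI2, FANCB and FANCE. Across the 35 genes, the level in TPC-1 and the log2 fold change had Pearson's r of -0.35 and Spearman's rho of -0.35, a description across genes of the same libraries.

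**Figure D1:**
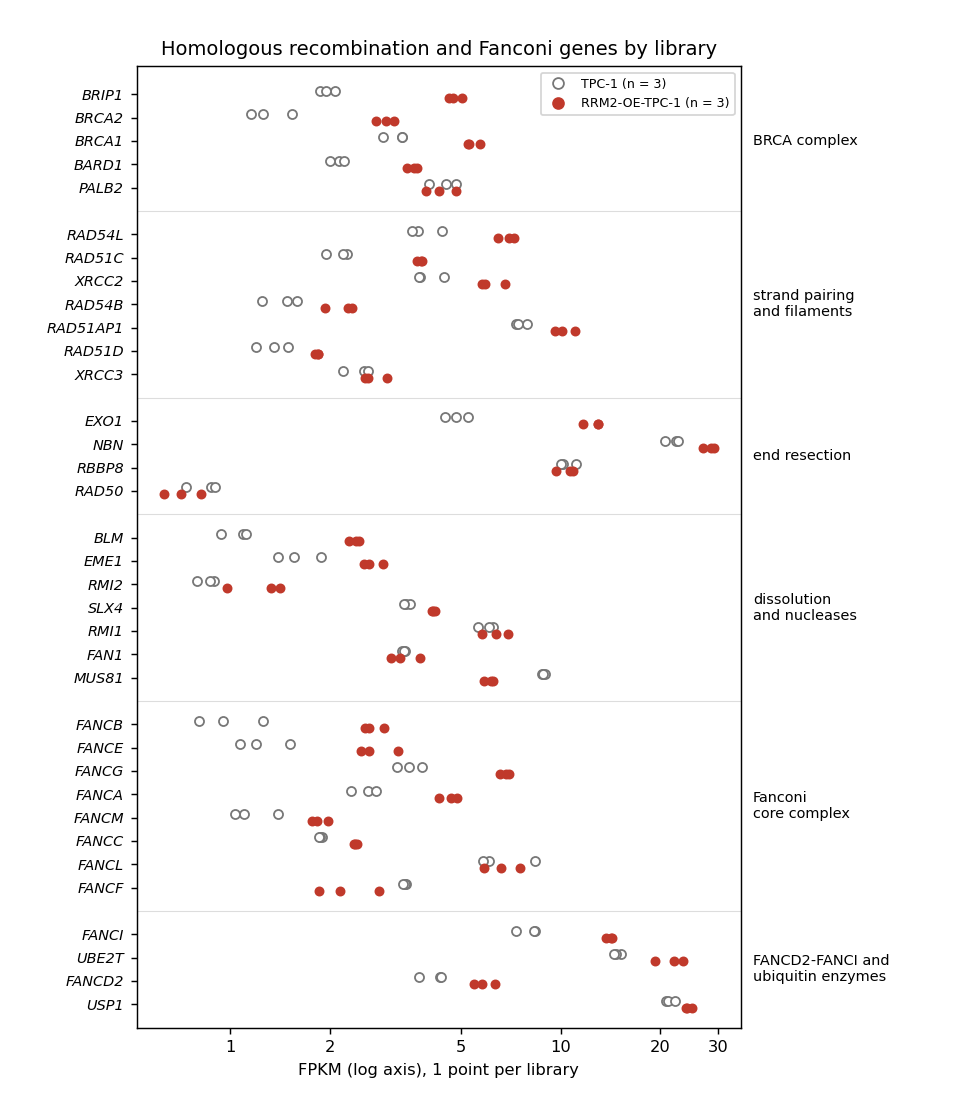
FPKM of the 35 genes on a log axis, 1 point per library, with open points for the 3 TPC-1 libraries and filled points for the 3 RRM2-OE-TPC-1 libraries, ordered by role. The filled points lie to the right of the open points for 26 genes, to the left for MUS81 and FANCF, and among them for 7 genes.

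In the BRCA group, 4 of 5 genes rose and PALB2 did not pass, with a median log2 fold change of 0.75. BRIP1 (ENSG00000136492, GRCh38 chromosome 17, 61681266 to 61863521), the helicase that binds BRCA1 and is also known as FANCJ, stood at 1.87, 2.08 and 1.96 FPKM in TPC-1 and at 4.74, 5.04 and 4.6 in RRM2-OE-TPC-1. Every RRM2-OE-TPC-1 library was above every TPC-1 library. The mean rose from 1.97 ± 0.101 to 4.79 ± 0.224 FPKM (SD, n = 3), 2.43-fold, with a log2 fold change of 1.24 (SE 0.0751, limma adjusted p = 2.94e-06).

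BRCA2 (ENSG00000139618, chromosome 13, 32315474 to 32400266), which acts at resected DNA to load the filament, stood at 1.54, 1.25 and 1.16 FPKM in TPC-1 and at 2.97, 3.12 and 2.76 in RRM2-OE-TPC-1. The groups were again separate, and the lowest RRM2-OE-TPC-1 library was well above the highest TPC-1 library. The mean rose from 1.32 ± 0.198 to 2.95 ± 0.185 FPKM (SD, n = 3), with a log2 fold change of 1.11 (SE 0.119, limma adjusted p = 7.02e-05).

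BRCA1 and BARD1 form the ubiquitin ligase heterodimer that acts early at breaks, and they rose side by side. BRCA1 went from 3.17 ± 0.239 to 5.40 ± 0.261 FPKM (SD, n = 3), a log2 fold change of 0.75 (limma adjusted p = 5.06e-05). BARD1 went from 2.11 ± 0.103 to 3.56 ± 0.127 FPKM (SD, n = 3), a log2 fold change of 0.73 (limma adjusted p = 6.02e-05). The ratio of BRCA1 to BARD1 in FPKM was 1.51 ± 0.147 in TPC-1 against 1.52 ± 0.0737 in RRM2-OE-TPC-1 (SD, n = 3).

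PALB2, the bridge between BRCA1 and BRCA2, did not pass the test. It stood at 4.82, 4.01 and 4.49 FPKM in TPC-1 and at 4.28, 4.83 and 3.90 in RRM2-OE-TPC-1, and the groups overlapped. Its log2 fold change was -0.03 with a 95% interval from -0.26 to 0.19 (limma adjusted p = 0.772), an interval that lies below the change of each of the other 4 genes of the group. The ratio of BRCA2 to PALB2 was 0.296 ± 0.0341 in TPC-1 against 0.682 ± 0.0313 in RRM2-OE-TPC-1 (SD, n = 3). The ratios between partners given here and for the later groups were chosen after the values were seen and are descriptions.

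Of the 7 genes of strand pairing and filament upkeep, 6 rose and XRCC3 did not pass, with a median log2 fold change of 0.57 and none at 1 or more. RAD54L, a motor protein that helps strands to pair, had the largest change of the group. It stood at 3.71, 3.55 and 4.38 FPKM in TPC-1 and at 7.22, 6.45 and 7 in RRM2-OE-TPC-1, with no overlap. The mean rose from 3.88 ± 0.436 to 6.89 ± 0.393 FPKM (SD, n = 3), a log2 fold change of 0.82 (SE 0.0874, limma adjusted p = 7.06e-05). LRRC41, at 13.1 FPKM, covers 25.1% of the RAD54L exon bases on the opposite strand. Its relative RAD54B rose from 1.44 ± 0.175 to 2.18 ± 0.213 FPKM (SD, n = 3), a log2 fold change of 0.57 (limma adjusted p = 0.00373), though 59.1% of its exon bases are shared with FSBP on the same strand.

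RAD51C, RAD51D, XRCC2 and XRCC3 work in small complexes that stabilise the filaments, and 3 of these 4 genes rose. RAD51C, present in both of the complexes, rose from 2.13 ± 0.167 to 3.76 ± 0.0615 FPKM (SD, n = 3), a log2 fold change of 0.79 (limma adjusted p = 5.46e-05). XRCC2 rose from 3.97 ± 0.395 to 6.15 ± 0.568 FPKM (SD, n = 3), a log2 fold change of 0.62 (limma adjusted p = 0.000466). RAD51D, the partner of XRCC2, rose from 1.35 ± 0.15 to 1.83 ± 0.0224 FPKM (SD, n = 3), a log2 fold change of 0.42 (limma adjusted p = 0.00928).

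XRCC3, the partner of RAD51C in the smaller complex, stood at 2.55, 2.61 and 2.19 FPKM in TPC-1 and at 2.56, 2.60 and 2.98 in RRM2-OE-TPC-1. The groups overlapped, and its log2 fold change of 0.15 had a 95% interval from -0.09 to 0.38 (limma adjusted p = 0.228). KLC1 covers 76.7% of the XRCC3 exon bases on the opposite strand, and whether the counting used strand is not given in the sources used here, so reads of both genes may not be told apart. RAD51AP1, which binds DNA and promotes strand pairing, rose from 7.56 ± 0.295 to 10.3 ± 0.727 FPKM (SD, n = 3), a log2 fold change of 0.43 (limma adjusted p = 0.000364).

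Among the 4 end resection genes, EXO1 and NBN rose, and RAD50 and RBBP8 did not pass. EXO1 (ENSG00000174371, chromosome 1, 241847967 to 241895148), the exonuclease that extends resection and also serves mismatch repair, whose promoter is shown above, stood at 4.47, 5.26 and 4.83 FPKM in TPC-1 and at 13.0, 13.0 and 11.7 in RRM2-OE-TPC-1. The libraries of the groups were far apart, with 309 to 921 reads behind each value. The mean rose 2.58-fold, from 4.85 ± 0.393 to 12.5 ± 0.761 FPKM (SD, n = 3), with a log2 fold change of 1.35 (SE 0.0726, limma adjusted p = 1.65e-06). EXO1 was the 1 gene of the 35 that stayed at a log2 fold change of 1 or more when the pseudocount was 1.

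The genes that begin resection showed smaller differences. NBN, the subunit of the MRE11 complex that brings it to breaks and recruits ATM, was the most abundant of the 35 genes and rose from 21.9 ± 1.04 to 28.1 ± 1.09 FPKM (SD, n = 3), a log2 fold change of 0.36 (limma adjusted p = 0.000235). RBBP8 encodes CtIP, which starts resection together with that complex. It stood at 10.1, 11.1 and 10 FPKM in TPC-1 and at 10.7, 9.68 and 10.9 in RRM2-OE-TPC-1, with overlapping groups and a 95% interval of the log2 fold change from -0.14 to 0.14 (limma adjusted p = 0.993).

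RAD50, the long coiled-coil ATPase of the same complex, stood at 0.736, 0.876 and 0.899 FPKM in TPC-1 and at 0.630, 0.711 and 0.816 in RRM2-OE-TPC-1. The groups overlapped, with a log2 fold change of -0.20 and a 95% interval from -0.55 to 0.16 (limma adjusted p = 0.286). Its level in FPKM was the lowest of the 35 genes and far below that of NBN, and 79.7% of its exon bases are shared on the same strand with the gene model AC116366.3, itself at 0.0148 FPKM. How reads in such shared exons were counted is not given in the sources used here, so the level of RAD50 is uncertain.

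Of the 7 genes of joint molecule dissolution and nucleases, 4 rose, MUS81 fell, and RMI1 and FAN1 did not pass, with a median log2 fold change of 0.26. BLM (ENSG00000197299, chromosome 15, 90717327 to 90816165), the helicase mutated in Bloom syndrome, stood at 1.10, 0.936 and 1.12 FPKM in TPC-1 and at 2.39, 2.45 and 2.29 in RRM2-OE-TPC-1, and the groups were far apart. The mean rose from 1.05 ± 0.0997 to 2.38 ± 0.0783 FPKM (SD, n = 3), 2.27-fold, with a log2 fold change of 1.11 (SE 0.105, limma adjusted p = 3.36e-05).

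The partners of BLM in the dissolvasome had smaller log2 fold changes than BLM, and whether these differ from that of BLM was not tested. RMI1, its scaffold subunit, stood at 5.98 ± 0.322 FPKM in TPC-1 against 6.37 ± 0.591 in RRM2-OE-TPC-1 (SD, n = 3), a log2 fold change of 0.09 with a 95% interval from -0.09 to 0.27 (limma adjusted p = 0.356), and the ratio of BLM to RMI1 was 0.176 ± 0.0234 and 0.375 ± 0.0275. RMI2, the small subunit, stood at 0.891, 0.868 and 0.795 FPKM in TPC-1 and at 1.41, 0.98 and 1.33 in RRM2-OE-TPC-1, with no overlap. Its log2 fold change was 0.48 (SE 0.156, limma adjusted p = 0.0247), and this call rested on 46 to 77 reads per library. It was lost without TPC-1 replicate 2 (limma adjusted p = 0.0503) or replicate 3 (0.0712), without RRM2-OE-TPC-1 replicate 1 (0.0829) or replicate 3 (0.0776), and with no filter on low values (0.0941).

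MUS81 and EME1 together form a structure-specific nuclease, and they moved in opposite directions. MUS81 stood at 8.79, 8.96 and 8.82 FPKM in TPC-1 and at 6.14, 6.24 and 5.86 in RRM2-OE-TPC-1, the only gene of its group whose RRM2-OE-TPC-1 libraries were all lower. The mean fell from 8.86 ± 0.0905 to 6.08 ± 0.197 FPKM (SD, n = 3), a log2 fold change of -0.54 (SE 0.0473, limma adjusted p = 2.28e-05). CFL1, at 129 FPKM over all libraries, overlaps 13.9% of the MUS81 exon bases on the opposite strand.

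EME1, the subunit that MUS81 needs for activity, stood at 1.56, 1.88 and 1.39 FPKM in TPC-1 and at 2.90, 2.62 and 2.53 in RRM2-OE-TPC-1, a log2 fold change of 0.71 (limma adjusted p = 0.00103). The groups did not overlap, and LRRC59, at 49.3 FPKM, covers 16.4% of the EME1 exon bases on the opposite strand. The ratio of EME1 to MUS81 was 0.182 ± 0.0262 in TPC-1 against 0.442 ± 0.0269 in RRM2-OE-TPC-1 (SD, n = 3), so EME1 had the lower level per exon length in both groups.

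SLX4, the scaffold that gathers nucleases including MUS81-EME1, rose from 3.42 ± 0.0740 to 4.12 ± 0.0400 FPKM (SD, n = 3), a log2 fold change of 0.26 (limma adjusted p = 0.00483). FAN1, a nuclease recruited by ubiquitinated FANCD2, stood at 3.30, 3.38 and 3.35 FPKM in TPC-1 and at 3.06, 3.26 and 3.74 in RRM2-OE-TPC-1. The RRM2-OE-TPC-1 libraries lay on both sides of the tight TPC-1 values, and the 95% interval of the log2 fold change ran from -0.20 to 0.20 (limma adjusted p = 0.995). MTMR10, at 3.77 FPKM, covers 24.3% of the FAN1 exon bases on the opposite strand.

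In the Fanconi core complex, 6 of 8 genes rose, FANCF fell and FANCL did not pass, with a median log2 fold change of 0.72. FANCB (ENSG00000181544, chromosome X, 14835961 to 14873069), which joins FANCL and FAAP100 in the catalytic module, stood at 0.951, 1.26 and 0.803 FPKM in TPC-1 and at 2.93, 2.55 and 2.64 in RRM2-OE-TPC-1. All RRM2-OE-TPC-1 libraries were higher, on 46 to 157 reads per library. The mean rose 2.69-fold, from 1.00 ± 0.232 to 2.71 ± 0.197 FPKM (SD, n = 3), with a log2 fold change of 1.36 (SE 0.155, limma adjusted p = 0.000101).

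FANCE (ENSG00000112039, chromosome 6, 35452356 to 35467103), which links the core complex to FANCD2, stood at 1.51, 1.19 and 1.07 FPKM in TPC-1 and at 3.21, 2.62 and 2.49 in RRM2-OE-TPC-1. The groups were separate, with the highest library of each group being its replicate 1. The mean rose from 1.26 ± 0.228 to 2.78 ± 0.383 FPKM (SD, n = 3), a log2 fold change of 1.09 (SE 0.148, limma adjusted p = 0.000287). When TPC-1 replicate 3 or RRM2-OE-TPC-1 replicate 1 was left out, the log2 fold change was 0.99 or 0.98, just under 1, while FANCG reached 1.01 without TPC-1 replicate 3.

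FANCG and FANCA, which bind each other within the core complex, also rose. FANCG stood at 3.47, 3.19 and 3.80 FPKM in TPC-1 and at 6.85, 6.57 and 7 in RRM2-OE-TPC-1, a log2 fold change of 0.95 (limma adjusted p = 1.19e-05), the nearest to 1 of the genes below it. FANCA rose from 2.57 ± 0.221 to 4.59 ± 0.285 FPKM (SD, n = 3), a log2 fold change of 0.82 (limma adjusted p = 6.58e-05), with 23.6% of its exon bases covered by ZNF276 on the opposite strand. FANCM, the translocase that anchors the complex to chromatin, rose from 1.18 ± 0.191 to 1.86 ± 0.106 FPKM (SD, n = 3), a log2 fold change of 0.62 (limma adjusted p = 0.0030). FANCC, which pairs with FANCE and FANCF, rose from 1.88 ± 0.0166 to 2.39 ± 0.0318 FPKM (SD, n = 3), a log2 fold change of 0.33 (limma adjusted p = 0.00523).

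FANCF, an adaptor of the complex, stood at 3.41, 3.38 and 3.34 FPKM in TPC-1 and at 2.81, 2.16 and 1.85 in RRM2-OE-TPC-1. All RRM2-OE-TPC-1 libraries were below the closely grouped TPC-1 libraries but were spread among themselves. The mean fell from 3.38 ± 0.0370 to 2.27 ± 0.492 FPKM (SD, n = 3), a log2 fold change of -0.57 (SE 0.138, limma adjusted p = 0.00647), so that of the FANCC, FANCE and FANCF module the first 2 genes rose and FANCF fell.

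FANCL, the RING subunit that carries the ligase activity, stood at 6.06, 8.38 and 5.83 FPKM in TPC-1 and at 7.52, 5.86 and 6.58 in RRM2-OE-TPC-1. The groups overlapped within a wide spread, and the log2 fold change of -0.01 had a 95% interval from -0.34 to 0.32 (limma adjusted p = 0.953). VRK2, at 5.88 FPKM, covers 18.7% of the FANCL exon bases on the opposite strand.

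All 4 genes of the FANCD2-FANCI pair and its ubiquitin enzymes rose, with none at a log2 fold change of 1 or more. FANCI stood at 8.36, 8.33 and 7.34 FPKM in TPC-1 and at 14.3, 13.7 and 14.2 in RRM2-OE-TPC-1, with a wide gap between the groups. Its mean rose from 8.01 ± 0.582 to 14 ± 0.320 FPKM (SD, n = 3), a log2 fold change of 0.80 (SE 0.0589, limma adjusted p = 8.33e-06). FANCD2, its partner in the clamp, rose from 4.13 ± 0.344 to 5.87 ± 0.441 FPKM (SD, n = 3), a log2 fold change of 0.50 (limma adjusted p = 0.000927). The ratio of FANCI to FANCD2 was 1.95 ± 0.274 in TPC-1 against 2.40 ± 0.223 in RRM2-OE-TPC-1 (SD, n = 3).

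UBE2T, the enzyme that hands ubiquitin to the pair, rose from 14.8 ± 0.414 to 21.6 ± 2.08 FPKM (SD, n = 3), a log2 fold change of 0.54 (limma adjusted p = 0.000189). USP1, which takes the ubiquitin off again, had the smallest change among the genes that rose. It stood at 20.8, 21.2 and 22.2 FPKM in TPC-1 and at 25.0, 23.9 and 24.2 in RRM2-OE-TPC-1, without overlap but close together. Its log2 fold change was 0.19 (SE 0.0387, limma adjusted p = 0.00284).

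**Figure D2:**
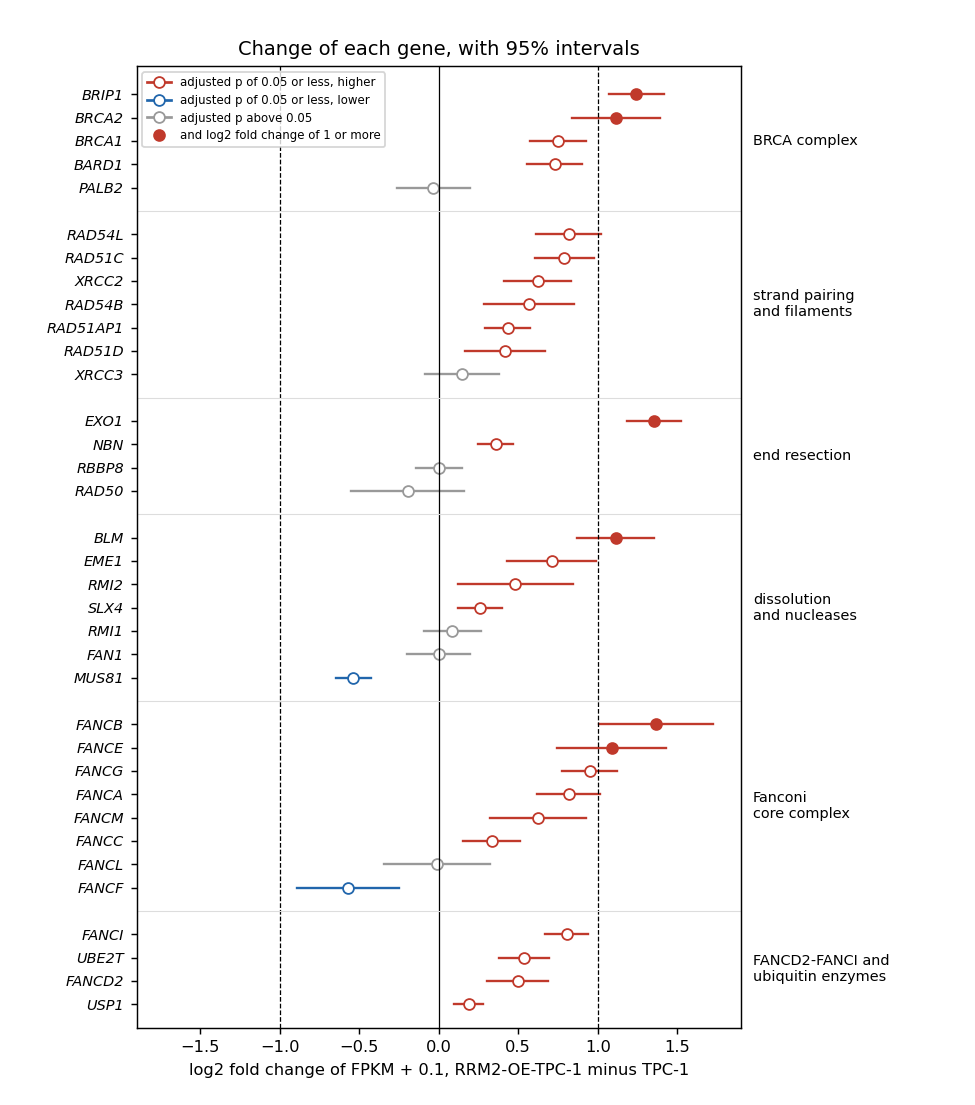
Log2 fold change of FPKM + 0.1 for each of the 35 genes, RRM2-OE-TPC-1 minus TPC-1, with 95% intervals from limma, ordered by role, with dashed lines at -1 and 1. Filled points mark the 6 genes at 1 or more, blue points mark MUS81 and FANCF, and the 7 grey intervals cross 0.

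Overlap with other annotated genes was common, with 5 of the 35 genes sharing exon bases with another gene on the same strand and 17 with one on the opposite strand. Among the 16 genes with no such overlap, 15 rose, none fell and 1 did not pass, with a median log2 fold change of 0.76, and all 6 genes at 1 or more were among them. Both genes that fell were among the 19 with an overlap. That of FANCF was with GAS2, at 0.0479 FPKM, over 11.3% of its exon bases on the opposite strand. Of the 25 genes whose overlaps each covered less than 10% of their exon bases, 22 rose and 3 did not pass.

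The other genes of these pathways were taken from a list of 40 further homologous recombination genes and 16 further Fanconi genes. Of the 36 recombination genes tested, 22 rose, 5 fell and 9 did not pass, with a median log2 fold change of 0.36. Of the 14 Fanconi genes tested, 5 rose, 3 fell and 6 did not pass, with a median of -0.11. The share that rose was 61.1% in the recombination list and 35.7% in the Fanconi list, beside 34.9% of all tested genes. Both lists together had 27 genes higher and 8 lower, or 24 higher and 12 lower when scaled to library totals and 26 higher and 11 lower with voom on the recovered reads. Of these 50 genes, 6 were higher by a log2 fold change of 1 or more, none lower.

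The 5 largest of them were CENPX at 1.27, TONSL at 1.25, RFWD3 at 1.18, PSMC3IP at 1.16 and FIGNL1 at 1.15 in log2 fold change. MLX, at 6.94 FPKM, covers 29.9% of the PSMC3IP exon bases on the opposite strand. CENPX, a histone-fold partner of FANCM, rose from 8.35 ± 0.577 to 20.2 ± 0.911 FPKM (SD, n = 3, limma adjusted p = 9.18e-07). TONSL, which acts at stalled replication forks, rose from 4.56 ± 0.313 to 11.0 ± 0.427 FPKM (SD, n = 3, limma adjusted p = 1.19e-06). RFWD3, a ubiquitin ligase known as FANCW, rose from 9.22 ± 0.288 to 21.1 ± 0.686 FPKM (SD, n = 3, limma adjusted p = 2.67e-07).

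The genes that fell, named after their values were seen, were ATM (log2 fold change -0.28), WRN (-0.20), RECQL5 (-0.34), ZSWIM7 (-0.58) and BABAM2 (-0.39) among the recombination genes, and ERCC1 (-0.39), REV1 (-0.34) and FAAP20 (-0.18) among the Fanconi genes. The calls of WRN (limma adjusted p = 0.0283) and FAAP20 (limma adjusted p = 0.0462) were weak. WRN was lost when any library other than TPC-1 replicate 1 was left out (limma adjusted p of 0.0523 to 0.0943), and FAAP20 when any library other than TPC-1 replicate 2 was left out (limma adjusted p of 0.0568 to 0.134). Of the genes that rose, RAD52, MND1, DCLRE1A and FAAP24 also lost the call when some single libraries were left out. Their limma adjusted p values with all libraries were 0.0428, 0.0379, 0.0229 and 0.0159, and they too were named after their values were seen. ATM is the kinase that signals breaks, WRN and RECQL5 are RecQ helicases like BLM, ERCC1 is a subunit of a nuclease that unhooks crosslinks, and REV1 is a translesion polymerase. On the opposite strand, CD3EAP, at 3.70 FPKM, covers 28.6% of the ERCC1 exon bases. EIF5B, at 24.2 FPKM, covers 11.0% of those of REV1, also on the opposite strand. MRE11, the nuclease of the complex with RAD50 and NBN and also named after its values were seen, rose from 5.14 ± 0.331 to 6.72 ± 0.0624 FPKM (SD, n = 3), a log2 fold change of 0.38 (limma adjusted p = 0.000664).

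Of the listed recombination and Fanconi genes that were not tested, RAD51B, DMC1, RTEL1, SLX1A and SLX1B were under the filter on low values. On the same strand, RTEL1 shares 70.2% of its exon bases with RTEL1-TNFRSF6B. SLX1A shares 86.0% with SLX1A-SULT1A3, and SLX1B shares 63.6% with SLX1B-SULT1A4. How reads in shared exons were counted is not given in the sources used here, so the levels of RTEL1, SLX1A and SLX1B are uncertain.

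Nonhomologous end joining rejoins broken ends without a template, and its genes gave a mixed picture. Of 16 tested genes from a list of 18, 6 rose, 5 fell and 5 did not pass, with a median log2 fold change of 0.12. XRCC4, the scaffold of the ligation step, rose from 3.36 ± 0.436 to 9.52 ± 0.899 FPKM (SD, n = 3), a log2 fold change of 1.48 (limma adjusted p = 7.98e-06), the 1 gene of this list at 1 or more. Among those that fell, named after their values were seen, were the polymerases POLM (-0.51) and POLL (-0.52), DCLRE1C (-0.26) and TP53BP1 (-0.19), the last a factor that restrains resection. TUBGCP4, at 2.60 FPKM, covers 28.7% of the TP53BP1 exon bases on the opposite strand. DCLRE1C (limma adjusted p = 0.0442) was lost when any library other than TPC-1 replicate 2 was left out (limma adjusted p of 0.0563 to 0.128), TP53BP1 without RRM2-OE-TPC-1 replicate 3 (limma adjusted p = 0.0508), and without that library 3 genes of the list fell instead of 5. The share of genes that rose was 37.5% here and 74.3% over the 35 genes, beside 34.9% of all tested genes. It was 54% over the other recombination and Fanconi genes together, with 61.1% for the recombination list and 35.7% for the Fanconi list. The difference between the lists was not tested.

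Markers of the cell cycle moved with these results. All 36 S phase markers rose, with a median log2 fold change of 0.93, and their summed level was 327 to 336 FPKM in the TPC-1 libraries and 730 to 752 in the RRM2-OE-TPC-1 libraries. Of 54 G2/M markers, 47 rose, 3 fell and 4 did not pass, with a median of 0.70, and their summed level was 1148 to 1201 FPKM in TPC-1 against 2100 to 2106 in RRM2-OE-TPC-1. PCNA, the replication clamp, rose from 34.1 ± 1.01 to 122 ± 1.94 FPKM (SD, n = 3), and MKI67, a proliferation marker, from 23.9 ± 0.813 to 44.4 ± 3.56. The part of these markers in the changes of the 35 genes was not tested, and in bulk libraries more cells in S and G2 phase and more RNA per cell cannot be told apart. By flow cytometry, the study reported a higher share of TPC-1 cells in S phase with RRM2 overexpression. The part of that difference in the changes of the 35 genes was not tested either. The summed level of the 35 genes was 166 to 173 FPKM in TPC-1 against 227 to 230 in RRM2-OE-TPC-1.

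**Figure D3:**
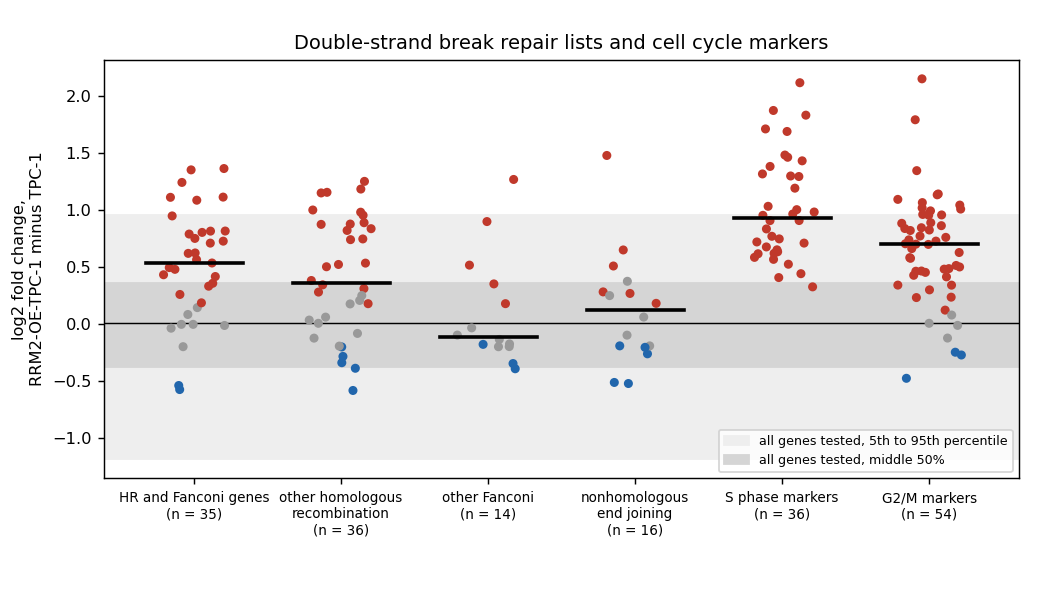
Log2 fold change of every tested gene of each list, RRM2-OE-TPC-1 minus TPC-1, 1 point per gene, with red for genes that rose, blue for genes that fell and grey for genes that did not pass, and a bar at the median of each list. The grey bands cover central parts of the values of all tested genes, as named in the key, and not their full range of -6.97 to 4.80. The medians of the lists run from -0.11 for the other Fanconi genes to 0.93 for the S phase markers.

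The size of the largest increases depended on the pseudocount more than on any library. With a pseudocount of 1 in place of 0.1, BRIP1 was at 0.96, FANCB at 0.89, BRCA2 at 0.77, FANCE at 0.74 and BLM at 0.72, while EXO1 was at 1.21. The mean of those 5 genes in TPC-1 was 1.00 to 1.97 FPKM, and that of EXO1 was 4.85. Leaving out each library in turn gave 1.3 to 1.41 for EXO1, 1.23 to 1.52 for FANCB, 1.21 to 1.28 for BRIP1, 1.03 to 1.22 for BRCA2 and 1.04 to 1.16 for BLM. All of these values were past an adjusted p of 0.05 (limma).

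**Figure D4:**
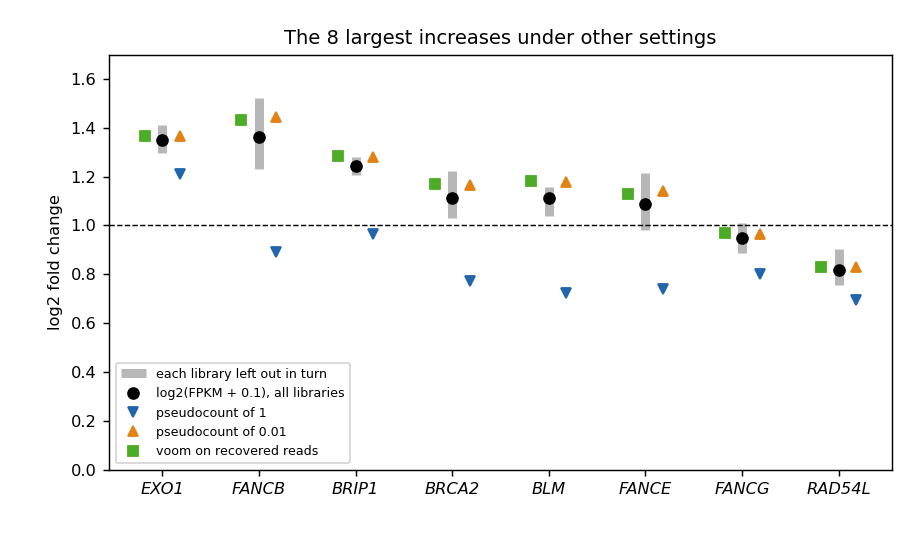
Log2 fold change of the 8 genes with the largest increases under the main setting, 2 other pseudocounts and voom on the recovered reads, with grey bars spanning the values without each library in turn and a dashed line at 1. With a pseudocount of 1 only EXO1 stays above the line, and with the other settings shown EXO1, FANCB, BRIP1, BRCA2 and BLM all lie above it.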

How the data were processed

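RNA of 3 TPC-1 and 3 RRM2-OE-TPC-1 samples, stated to be biological triplicates, was sequenced from libraries of the NEBNext Ultra Directional kit. The study's methods name poly(A) selection, while the labels name rRNA removal and RNase R. The submitters' processing notes name HISAT2 2.0.5, featureCounts 1.5.0, DESeq2 1.20.0 and build GRCh38.p14, and whether counting used strand is not given in the sources used here. The authors deposited FPKM for 58735 genes, with GENCODE 29 identifiers and positions. From each deposited FPKM value and exon length, whole reads were recovered, giving 14317091 to 17084067 reads per library. Of the values, 100% were whole within 0.01, a limit that was widened in proportion to the count for the highest counts.

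Genes with at least 0.5 FPKM and 10 reads in at least 3 libraries (13621) were tested with limma 3.58.1 (trend) in R 4.3.3 on log2(FPKM + 0.1), a scale that understates changes of low genes, with Benjamini-Hochberg adjustment over all genes tested, an adjusted p of 0.05 or less and, where said, a log2 fold change of at least 1 in size. Log2 fold changes are on that scale unless voom or another pseudocount is named, values written as -fold are ratios of mean FPKM, and both run from TPC-1 to RRM2-OE-TPC-1. The study tested counts. Here the deposited unit, FPKM, was tested, with the recovered reads used in the voom alternative, and the script was tested on simulated data. Alternatives were no filter, pseudocounts of 1 and 0.01, voom on the recovered reads, leaving out each library in turn, blocking on replicate number, and rescaling to library totals or with median-of-ratios factors. The members and lists were chosen with earlier results of these data known. All 35 genes are named. Values of every library are given for genes past both thresholds and for the largest and smallest absolute change in each role group, and some further genes were given them after their values were seen. Of the other recombination, Fanconi and end joining genes, those past both thresholds are named, up to 5 in a direction, and PCNA and MKI67 stand for the cell cycle lists. Promoter windows are from RefSeq (GRCh38.p14). Python 3.11.15 and pandas 2.3.3 were used for the counts. Some genes of the lists are not reported here.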

Additional observations from a re-analysis of the deposited data

How the results depend on the processing

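With a pseudocount of 1, 1 gene of the 35 (EXO1) had a log2 fold change of 1 or more instead of 6, and the median log2 fold change was 0.39 instead of 0.54. Leaving out each library in turn gave 5 to 6 such genes, 27 to 28 genes with an adjusted p of 0.05 or less (limma), and a median of 0.51 to 0.61, the highest without RRM2-OE-TPC-1 replicate 1. It gave 29 to 34 of the other recombination and Fanconi genes instead of 35 and 9 to 11 of the end joining genes. Of the values of the 35 genes under the alternatives, 438 kept direction and side of the threshold, 5 lost the call (all RMI2) and 12 changed sign, in 4 genes that did not pass the test in any setting. Leaving out each library in turn gave log2 fold changes of -0.11 to 0.038 for PALB2, -0.033 to 0.051 for RBBP8, -0.11 to 0.15 for FANCL and -0.079 to 0.061 for FAN1, and FAN1 was at 0.00023 with a pseudocount of 1 and 0.0020 with voom on recovered reads. No pairing of the samples by replicate number was seen, with correlations of the deviations of same-numbered libraries of -0.0105, -0.0060 and -0.0550. These correlations cannot tell whether same-numbered samples were handled together. With the replicate block 6 genes had a log2 fold change of 1 or more and 28 of the 35 passed the test, and over all genes 8934 passed instead of 9207. The depth behind the deposited FPKM differed by group. It was 1.03 to 1.05 times the reads on genes in the TPC-1 libraries and 0.997 to 1.01 times in the RRM2-OE-TPC-1 libraries. Scaling to library totals moved the median of all tested genes to -0.05, and 28 of the 35 genes passed the test. Genes with under 100 reads per library, such as RMI2, limit what small changes could be detected at this depth.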
